A study of Mus musculus with 8 samples.

Results

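Messenger RNA levels of 3 chloride cotransporter genes, *Slc12a2* (NKCC1), *Slc12a5* (KCC2) and *Slc12a7* (KCC4), were examined in brain tissue of mice that lack 1b, a conserved non-coding interval of *Scn1a*. The genes were taken by symbol from a table of 24015 entries, and each symbol matched 1 entry. The table covers 8 mice of the C57BL/6N strain at postnatal day 7 (P7), 1 library per animal. WT mice (n = 2, both male) carried the intact interval, 1b+/- mice (n = 4, 2 males and 2 females) carried the deletion on 1 allele, and 1b-/- mice (n = 2, both female) carried it on both. The deletion was made with Cas9 in C57BL/6N oocytes and kept as 1 germline-transmitted mouse line, so every cell of a mouse carried its genotype. WT and 1b-/- differed in sex as well as genotype, and the effects of both cannot be told apart in that comparison. The tissue is hippocampus by the labels but forebrain by the study's methods.

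The direction of current through the GABA-A receptor depends on chloride inside the neuron. NKCC1 carries sodium, potassium and chloride into the cell and keeps chloride high in immature neurons, where GABA can depolarize. KCC2, which is largely restricted to neurons, carries potassium and chloride out and is upregulated as neurons mature, and the first postnatal weeks in rodents are the usual time of this change in GABA polarity. KCC4 belongs to the same potassium-chloride group as KCC2 and is activated by cell swelling. The ratio of *Slc12a5* to *Slc12a2* is therefore used as a transcript index of the balance between chloride export and import. Transcript levels do not measure the amount, phosphorylation or membrane location of the proteins, which also set transport.

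In mm9, *Slc12a2* spans chromosome 18 from 58038332 to 58106475 on the plus strand, with 6520 bases of annotated exon. *Slc12a5* spans chromosome 2 from 164786316 to 164825228 on the plus strand, with 7178 bases of exon. *Slc12a7* spans chromosome 13 from 73870542 to 73954191 on the plus strand, with 5744 bases of exon. No run of 50 bases, the read length, was shared between the protein-coding transcripts of any of the 3 genes and those of another gene. Non-coding transcripts and pseudogenes were not searched. *Slc12a5* overlapped the exons of *Gm11459* on the same strand over 188 bases, 2.62% of its own exon length, and the other 2 genes overlapped no other exon. Among protein-coding transcripts and overlapping exons, the 3 genes therefore had little annotated sequence that counting could have assigned elsewhere.

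Library totals ranged from 2947770 to 20878772 counts. *Scn1a*, which encodes the sodium channel Nav1.1 and carries the deletion, checked the genotype labels. Its level was 42.8 ± 3.32 CPM (SD, n = 2) in WT, 22.5 ± 4.91 (n = 4) in 1b+/- and 2.59 ± 0.834 (n = 2) in 1b-/-, and no 2 groups overlapped. CPM is a gene's count relative to the size of its library, here scaled by the trimmed mean of M values (TMM). With edgeR's quasi-likelihood test, *Scn1a* was lower in 1b-/- than in WT by a log2 fold change of -3.97 (SE 0.32, adjusted p = 0.0005965). In 1b+/- against WT the log2 fold change was -0.90 (SE 0.21, adjusted p = 0.3813), which did not pass the threshold of 0.05. With 2 animals in a group, an exact permutation test of a difference between genotypes cannot reach that threshold.

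*Slc12a2*, the importer, was close to level across the 8 animals. It measured 114.2 and 107.0 CPM in the WT libraries, 110.6, 117.1, 111.2 and 94.5 in the 1b+/- libraries (replicates 1 to 4) and 114.3 and 92.6 in the 1b-/- libraries. The highest library stood 1.26-fold above the lowest, and the lowest pair, 1b+/- replicate 4 and 1b-/- replicate 2, were also the libraries with the fewest counts, 2947770 and 3940859. Whether depth played a part was not tested. Group means were 110.6 ± 5.11 CPM in WT, 108.3 ± 9.68 in 1b+/- and 103.5 ± 15.3 in 1b-/- (SD, n = 2, 4 and 2), and all 3 groups overlapped.

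No genotype difference in *Slc12a2* passed the edgeR test. The log2 fold change was -0.03 (SE 0.14, 95% interval -0.34 to 0.28) in 1b+/- against WT. For 1b-/- it was -0.09 relative to WT (SE 0.16, interval -0.45 to 0.27) and -0.07 relative to 1b+/- (SE 0.14, interval -0.38 to 0.25). An additive model over the number of deleted alleles gave -0.05 per allele (SE 0.08). All adjusted p-values were 0.9999 or 1.0, and the sign of the differences turned under several alternative settings.

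*Slc12a5*, the exporter, differed far more between animals of the same genotype. It measured 38.8 and 46.3 CPM in WT, 80.8, 27.0, 49.0 and 39.4 CPM in 1b+/- replicates 1 to 4, and 35.6 and 63.6 CPM in 1b-/-. The highest and the lowest of the 8 libraries, 3.00-fold apart, were both from 1b+/- males, and both WT values lay between them. The counts behind these values ranged from 118 in 1b+/- replicate 4 to 1225 in 1b+/- replicate 1.

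The plot of CPM per library sets this scatter beside that of the other 2 genes. The pooled within-genotype SD of log2(CPM + 0.5) was 0.58 for *Slc12a5*, against 0.14 for *Slc12a2* and 0.17 for *Slc12a7*. Among 6417 genes with a mean of 20 to 200 CPM the median was 0.20. The spread of *Slc12a5* exceeded that of 98.9% of these genes, whereas that of *Slc12a2* exceeded 27.2% and that of *Slc12a7* exceeded 40.6%.

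**Figure D1:**
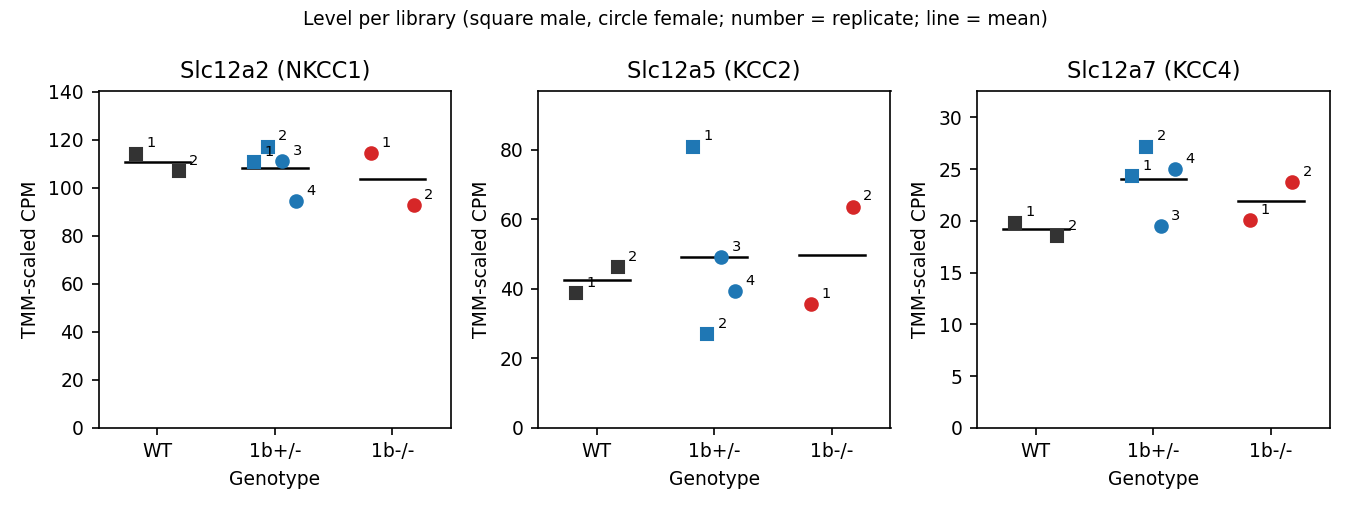
Level of *Slc12a2*, *Slc12a5* and *Slc12a7* in each library, in TMM-scaled CPM on a linear axis from 0, by genotype. Squares are males, circles females, numbers the replicates and lines the group means; the 1b+/- values of *Slc12a5* run from 27.0 to 80.8 CPM and cover the range of both other genotypes.

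Means of *Slc12a5* were 42.5 ± 5.30 CPM in WT, 49.0 ± 23.0 in 1b+/- and 49.6 ± 19.8 in 1b-/- (SD, n = 2, 4 and 2). Relative to WT, the log2 fold change was 0.22 in 1b+/- (SE 0.36, 95% interval -0.56 to 1.01) and 0.21 in 1b-/- (SE 0.42, interval -0.71 to 1.12). These comparisons share the WT libraries. Between 1b-/- and 1b+/- it was -0.02 (SE 0.36, interval -0.81 to 0.78), and the additive model gave 0.11 per allele (SE 0.21). Only 1b+/- held both sexes, so the sex term of a fit with genotype and sex rested on that genotype alone. With sex as a covariate the value for 1b-/- relative to WT was 0.49 (SE 0.61) and the additive value 0.25 (SE 0.29). None passed the test (adjusted p = 0.9991 to 1.0, edgeR), and the intervals span more than a log2 of 1 in either comparison with WT.

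Single libraries set the sign of these differences. Without 1b+/- replicate 1 the difference in *Slc12a5* between 1b+/- and WT was -0.14, and without 1b-/- replicate 2 that between 1b-/- and WT was -0.25. Within 1b+/-, males had 53.9 ± 38.1 CPM and females 44.2 ± 6.79 (SD, n = 2 each), a log2 difference of females from males of -0.28 (SE 0.43, adjusted p = 0.9999). Without 1b+/- replicate 1 that value was 0.73.

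The *Slc12a5* to *Slc12a2* ratio, which does not depend on library scaling, carried over the scatter of *Slc12a5*. In WT it was 0.340 (exact Clopper-Pearson 95% interval of the counts 0.305 to 0.377) and 0.433 (0.377 to 0.496). In 1b+/- replicates 1 and 2 it was 0.731 (0.678 to 0.787) and 0.230 (0.201 to 0.263). In 1b+/- replicates 3 and 4 it was 0.441 (0.409 to 0.475) and 0.417 (0.334 to 0.519). In 1b-/- it was 0.312 (0.272 to 0.356) and 0.687 (0.583 to 0.807).

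The intervals cover counting error only. Those of the 2 male 1b+/- libraries did not meet, and neither did those of the 2 1b-/- libraries, so counting error did not span the gap between animals of 1 genotype. *Slc12a2* counts exceeded *Slc12a5* counts in 8 of 8 libraries. Divided by exon length the ratio was still under 1 in each, from 0.209 in 1b+/- replicate 2 to 0.664 in 1b+/- replicate 1.

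**Figure D2:**
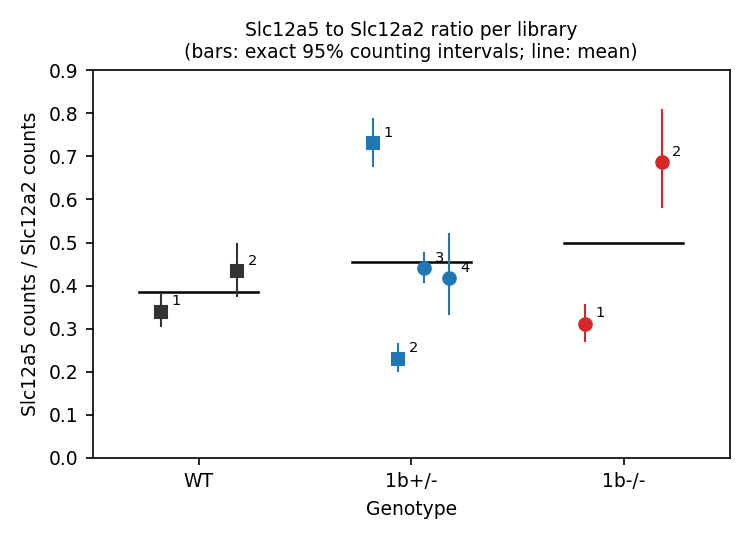
Ratio of *Slc12a5* to *Slc12a2* counts in each library, by genotype, on a linear axis from 0. Bars are exact 95% counting intervals, lines the group means, squares males and circles females; 1b+/- replicate 1 (0.731) and 1b-/- replicate 2 (0.687) lie above the other 6 libraries, which run from 0.230 to 0.441.

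The mean ratio was 0.386 ± 0.0658 in WT, 0.455 ± 0.207 in 1b+/- and 0.499 ± 0.265 in 1b-/- (SD, n = 2, 4 and 2), and the groups overlapped in all 3 comparisons. Without 1b+/- replicate 1 the 1b+/- mean was 0.363 ± 0.115 (n = 3), below that of WT. From WT to 1b+/- the mean log2 ratio differed by 0.13 (SE 0.38), with a two-sided exact permutation p = 0.8 where the smallest possible was 0.1333. From WT to 1b-/- it differed by 0.27 (SE 0.60), with exact permutation p = 1.0 and a smallest possible value of 0.3333. From 1b+/- to 1b-/- it differed by 0.14 (SE 0.66), with exact permutation p = 0.9333 and a smallest possible value of 0.1333. Adjusted over the 3 comparisons each permutation p was 1.0. No shift of the transcript index with genotype was detectable, in a design where the ratio of animals of 1 genotype ranged more widely than the group means.

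*Slc12a7* had the lowest mean of the 3 genes, in CPM and also per length. It measured 19.8 and 18.5 CPM in WT, 24.4, 27.2, 19.5 and 25.0 CPM in 1b+/- replicates 1 to 4, and 20.1 and 23.8 CPM in 1b-/-. Both 1b-/- values and 3 of 4 1b+/- values lay above both WT values, and the remaining 1b+/- value lay between them. Means were 19.2 ± 0.921, 24.0 ± 3.23 and 21.9 ± 2.62 CPM (SD, n = 2, 4 and 2).

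Relative to WT, the log2 fold change of *Slc12a7* was 0.31 in 1b+/- (SE 0.19, 95% interval -0.09 to 0.72) and 0.18 in 1b-/- (SE 0.22, interval -0.29 to 0.65). Between 1b-/- and 1b+/- it was -0.13 (SE 0.19, interval -0.54 to 0.28), and in the additive model 0.09 per allele (SE 0.11). With sex as a covariate, again with a sex term from 1b+/- alone in the genotype fit, the value for 1b-/- relative to WT was 0.42 (SE 0.31). The additive value was 0.22 (SE 0.16). None passed the test. Endothelial and mural markers moved in the same direction, with sums of 233.1 to 245.9 CPM in WT, 275.4 to 365.9 in 1b+/- and 253.1 to 356.1 in 1b-/-. Oligodendrocyte lineage markers summed to 170.7 to 198.6 CPM in WT, 225.0 to 252.3 in 1b+/- and 185.3 to 216.6 in 1b-/-. Their part in the level of *Slc12a7* was not tested. Of the 3 cotransporters, *Slc12a7* alone had groups that did not overlap, and only in 1b-/- against WT, where this held for 23.6% of all tested genes (11.6% with 1b-/- higher). The count was 0 of 3 in 1b+/- against WT, where it held for 12.3% of all genes, and 0 of 3 between 1b-/- and 1b+/-, where it held for 7.39%. The *Slc12a7* to *Slc12a2* ratio ran from 0.173 in WT replicate 2 to 0.265 in 1b+/- replicate 4.

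Across the 3 genes, 0 of 3 passed an adjusted p of 0.05 in any comparison. Of all 15588 tested genes, 0.0834% passed in 1b+/- against WT, and 0.00642% passed in 1b-/- whether set against WT or against 1b+/-. It was 0.0385% in the additive model and 0.0321% in females against males of 1b+/-. At an unadjusted p of 0.05, 0 of 3 genes passed as well, where 4.34%, 1.64%, 1.23%, 1.73% and 2.66% of all genes did in the same order. By the likelihood ratio test of edgeR 0 of 3 passed the adjusted threshold too, and so by DESeq2, which was run for the genotype comparisons and the additive model. The low adjusted shares show that few genes of any kind passed with these group sizes.

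Other members of the SLC12 family give the scale of these levels. Divided by exon length, the mean over the 8 libraries was 16.5 ± 1.42 CPM per kilobase for *Slc12a2*, 6.63 ± 2.40 for *Slc12a5* and 3.88 ± 0.552 for *Slc12a7* (SD, n = 8). Below them stood *Slc12a4* (KCC1) at 1.82 ± 0.318 and *Slc12a9* at 1.02 ± 0.333 CPM per kilobase. *Slc12a8* (0.222) and the kidney cotransporters *Slc12a3* (0.108) and *Slc12a1* (0.0701) were near the limit of detection, and the last 2 could not be ordered, each being at 0 CPM in at least 1 library.

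The libraries of *Slc12a2* and *Slc12a5* did not overlap on this scale, whereas those of *Slc12a5* and *Slc12a7* did, as did those of *Slc12a4* and *Slc12a9*. Of the 8 family members described here 0 passed the test in any comparison. The family's median log2 fold change relative to WT was 0.27 in 1b+/- and 0.20 in 1b-/-, where that of all genes was 0.01 and -0.01. These medians include *Slc12a1* and *Slc12a3*, which reached the 1 CPM needed for testing only in 1b-/- replicate 2 and 1b+/- replicate 2, respectively. That filter favored a fold change above 0 for each in that genotype, so the medians cannot show a shift of the family.

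**Figure D3:**
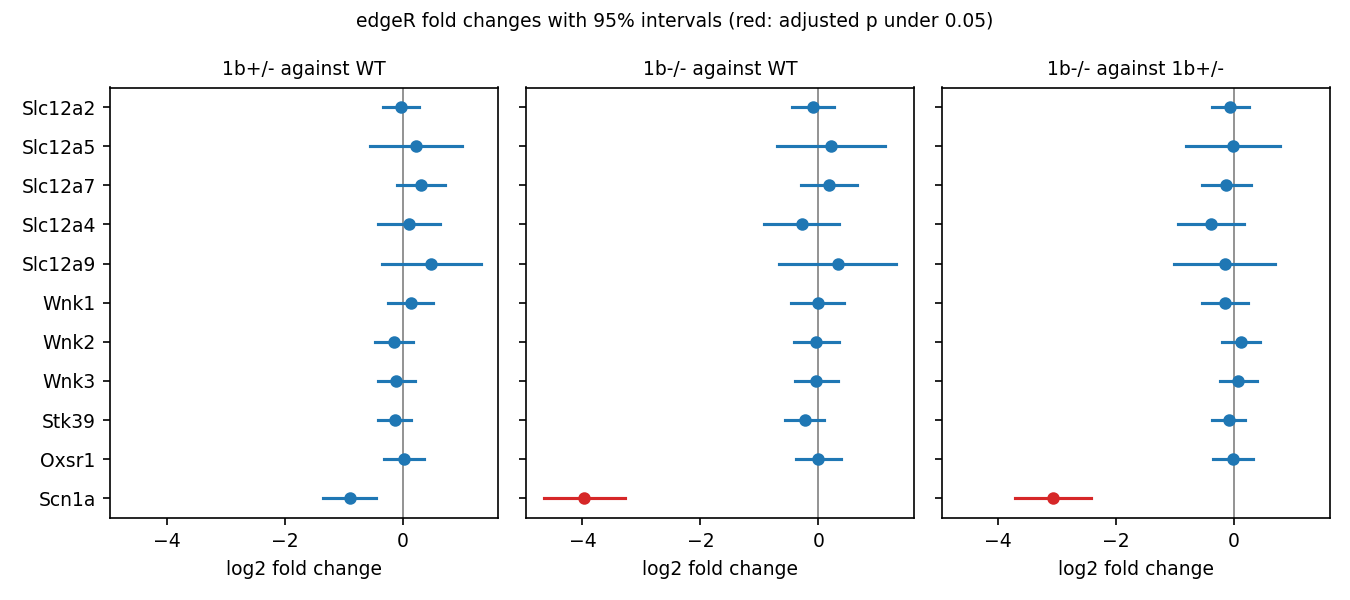
Log2 fold changes from edgeR with 95% intervals in 3 comparisons, for 5 SLC12 genes, 5 kinases that act on them, and *Scn1a*. Red marks an adjusted p under 0.05, reached here only by *Scn1a* in both comparisons with 1b-/-; the interval of *Slc12a5* is wider than that of *Slc12a2* or *Slc12a7* in each panel.

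The WNK kinases sense chloride and act through SPAK (*Stk39*) and OSR1 (*Oxsr1*), whose phosphorylation activates NKCC1 and inhibits the potassium-chloride exporters. *Wnk1* measured 257 and 257 CPM in WT, 280, 359, 256 and 233 CPM in 1b+/-, and 282 and 226 CPM in 1b-/-. *Stk39* measured 85.7 and 84.0 CPM in WT, 84.9, 75.1, 74.4 and 73.8 CPM in 1b+/-, and 72.1 and 72.3 CPM in 1b-/-. Its 1b-/- values, and 3 of 4 1b+/- values, lay below both WT values, with a log2 fold change of -0.23 (adjusted p = 1.0), and 12% of all genes lay below WT in this way. *Oxsr1* ran from 85.6 to 119.2 CPM with all groups overlapping. Of 10 genes of this list, which also holds *Wnk2*, *Wnk3*, *Wnk4*, the scaffolds *Cab39* and *Cab39l* and the ligase parts *Klhl3* and *Cul3*, 0 passed the test in any comparison. All 10 had, in 1b-/- against WT, a log2 fold change below 0, from -0.30 to -0.0001921, where 48.9% of all genes were above 0, and the median was -0.06. The same list had 4 of 10 genes above 0 in 1b+/- against WT and 4 of 10 in 1b-/- against 1b+/-.

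Proteins that bind KCC2 or tether it at the membrane also gave 0 of 6 genes past the test. *Neto2*, an auxiliary subunit of kainate receptors that binds KCC2, had its lowest level, 370.9 CPM, in 1b+/- replicate 1 and its highest, 595.9 CPM, in 1b-/- replicate 1. *Ckb*, the brain creatine kinase, was lowest at 71.6 CPM in 1b-/- replicate 1 and highest at 154.2 CPM in 1b+/- replicate 4. The list's median log2 fold change relative to WT was -0.12 in 1b+/- and -0.03 in 1b-/-.

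Regulators of *Slc12a5* transcription or abundance were tested as a list of 6. *Rest*, a repressor of neuronal genes, measured 17.9 and 21.3 CPM in WT, 23.6, 26.7, 24.6 and 25.7 CPM in 1b+/-, and 25.8 and 17.8 CPM in 1b-/-. All 4 1b+/- values lay above WT, as in 6.4% of all genes, but the log2 fold change of 0.36 did not pass the test. *Bdnf*, a neurotrophin that alters KCC2 levels, ran from 7.01 to 10.1 CPM and its receptor gene *Ntrk2* from 402 to 542 CPM. *Egr4*, an activator of the *Slc12a5* promoter, was at or under 1.51 CPM, with 0 counts in 2 libraries, so no difference in it was detectable.

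*Igf1*, a growth factor, stood apart within this list. It measured 26.1 and 24.5 CPM in WT, 67.2, 117.3, 55.7 and 44.7 CPM in 1b+/-, and 29.9 and 48.8 CPM in 1b-/-. All 4 1b+/- values lay above WT, as in 6.4% of all genes, and both 1b-/- values did, as in 11.6%. The log2 fold change relative to WT was 1.503 in 1b+/- (adjusted p = 0.3849, edgeR) and 0.62 in 1b-/- (adjusted p = 1.0), and neither passed.

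A last list held other genes of chloride and bicarbonate handling, among them the chloride channel genes *Clcn2* and *Clcn3*, the exchangers *Slc4a3*, *Slc4a8* and *Slc4a10*, the volume-regulated channel subunit *Lrrc8a* and the carbonic anhydrases *Car2* and *Car7*. *Car7* was under the filter on low values, and 0 of the 8 genes tested passed in any comparison. *Slc4a10* measured 40.3 and 45.8 CPM in WT, 67.5, 50.9, 50.1 and 34.4 CPM in 1b+/-, and 37.2 and 55.8 CPM in 1b-/-, highest in the same 2 libraries as *Slc12a5*. Over the 36 other genes of the 5 lists, 35 were tested and 0 passed. At an unadjusted p, 1 gene (2.86% of the 35) passed in 1b+/- against WT, where 4.34% of all genes did, and 0 passed in 1b-/- against WT, where 1.64% of all genes did. In 1b-/- against 1b+/- 1 gene (2.86%) passed, where 1.23% of all genes did. In females against males 1 gene (2.86%) passed, where 2.66% did, and in the additive model 0, where 1.73% did.

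Since *Slc12a5* is a neuronal gene, its scatter was set beside the levels of cell type and region markers. Bulk tissue cannot tell fewer cells of a type from less RNA per cell. Markers of immature neurons and progenitors (*Dcx*, *Sox11*, *Sox4*, *Neurod1*, *Igfbpl1*, *Dlx1*, *Dlx2*, *Nes*) summed to 9467 and 8579 CPM in WT, 6159, 10180, 8238 and 7954 CPM in 1b+/- replicates 1 to 4, and 9691 and 7103 CPM in 1b-/-. This order is nearly the reverse of that of *Slc12a5*, with the sum lowest in 1b+/- replicate 1, next lowest in 1b-/- replicate 2 and highest in 1b+/- replicate 2. *Dcx*, a microtubule protein of migrating neurons, measured 1440 and 1422 CPM in the first 2 of these libraries and 1944 CPM in the last. Its lowest value, 1349 CPM, was in 1b+/- replicate 4.

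Markers of neocortex (*Tbr1*, *Fezf2*, *Cux2*, *Rorb*, *Lmo3*, *Foxp2*, *Neurod6*) had their lowest sums in the same 2 libraries. They summed to 3019 and 2537 CPM in WT, 1706, 2958, 2455 and 2165 CPM in 1b+/-, and 2990 and 1980 CPM in 1b-/-. The single genes did not share this order. Of the 7, 3 were lowest in 1b+/- replicate 1, 2 in 1b+/- replicate 2, 2 in 1b+/- replicate 4 and 0 in 1b-/- replicate 2. Mature neuron markers (*Rbfox3*, *Snap25*, *Syt1*, *Syp*, *Map2*, *Camk2a*, *Nefm*, *Nefl*) varied less in sum, which was lowest in 1b+/- replicate 1 (3486 CPM) and highest in WT replicate 1 (4365 CPM). *Map2*, at 2250 to 2903 CPM, supplied most of that sum, and the single genes did not share its order. Of the 8, 4 were lowest in 1b+/- replicate 1 and the other 4 in 1b+/- replicate 2, while *Nefl*, a neurofilament gene, was highest in 1b+/- replicate 1.

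Over the 8 libraries log2 *Slc12a5* CPM was inversely related to the log2 sum of immature neuron markers (Pearson r = -0.944, exact permutation p = 0.000496, Spearman rho = -0.929, exact permutation p = 0.002232). Adjusted over the 33 relations of 3 genes and 11 marker lists, these exact permutation p-values were 0.01637 for r and 0.07366 for rho. Only that of r was under 0.05. The order of the libraries had been seen before, and the adjustment does not correct for that. Without 1b+/- replicates 1 and 2, the libraries farthest from the median sum, r was -0.846 (n = 6, exact permutation p = 0.0375). All 8 genes of the list had a negative r with *Slc12a5*. For neocortex markers r was -0.871 and rho -0.833 (exact permutation p = 0.004514 and 0.01538), which did not pass after adjustment (0.07448 and 0.2396). Without WT replicate 1 and 1b+/- replicate 1, the libraries farthest from its median, r was -0.796 (n = 6, exact permutation p = 0.06111), and 4 of 7 genes had a negative r.

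For mature neuron markers and *Slc12a5* r was -0.330 over 8 libraries and 0.355 without 1b+/- replicate 1, and 5 of 8 genes had a positive r. These relations were computed after the libraries' order had been seen, and *Sox11* and *Neurod6* supply much of the 2 sums. The 2 lists also share libraries and CPM scaling and are not independent of each other. Genotypes held too few animals for a value within each. Within both WT and 1b-/- the animal with more *Slc12a5* had the lower sum of either list, but a single pair of animals cannot show a relation. *Slc12a2* and *Slc12a7* had 0 relations past an adjusted p of 0.05. For *Slc12a7* the r farthest from 0 was that with mature neuron markers, -0.779, with an exact permutation p adjusted to 0.2698. All 8 genes of that list had a negative r with *Slc12a7*. For *Slc12a2* and immature neuron markers r was 0.520 and rho 0.810, with exact permutation p-values adjusted to 0.61 and 0.2396. Without 1b+/- replicate 1, an omission made after the values had been seen, that r was 0.901 (n = 7). By the same omission the r of *Slc12a2* went from 0.594 to 0.944 with neocortex markers and from 0.632 to 0.882 with midbrain and hindbrain markers. The 2 libraries lowest in *Slc12a2*, 1b+/- replicate 4 and 1b-/- replicate 2, had the fewest counts. Of the 12 midbrain and hindbrain genes, 7 and 6 were at 0 counts there.

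**Figure D4:**
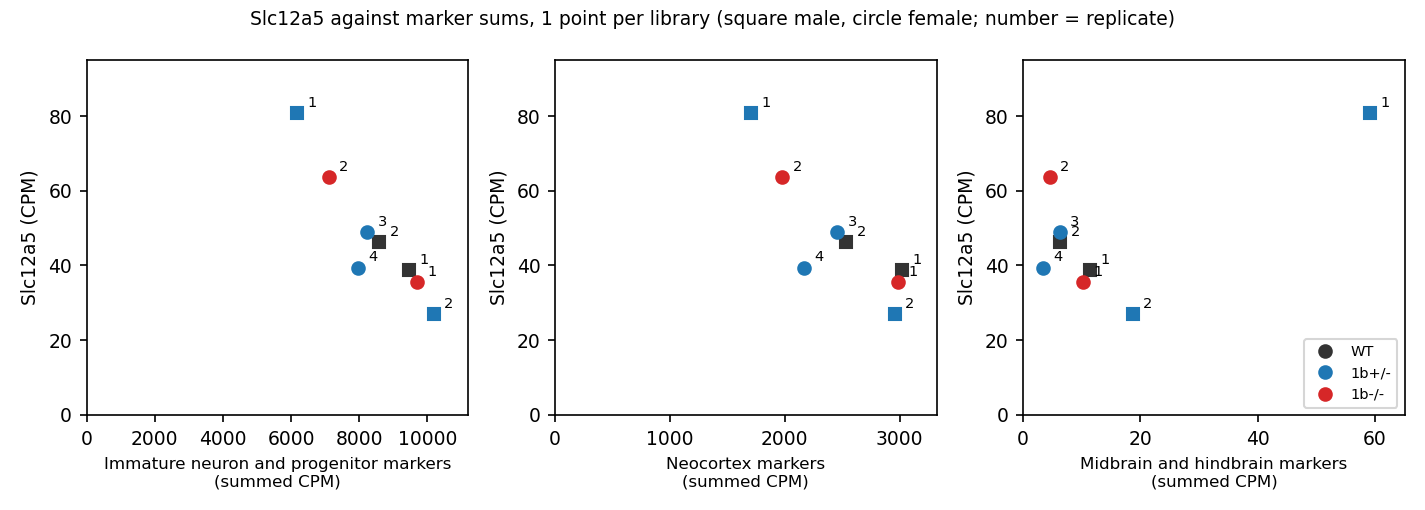
*Slc12a5* CPM against the summed CPM of immature neuron and progenitor markers, neocortex markers, and midbrain and hindbrain markers, 1 point per library, squares for males and circles for females. *Slc12a5* falls as the first 2 sums rise, from 80.8 CPM at a sum of 6159 to 27.0 CPM at a sum of 10180 in the left panel; in the right panel 1b+/- replicate 1 lies alone at 59.2 CPM.

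The library with the most *Slc12a5* also stood apart in regional markers. Markers of midbrain and hindbrain (12 genes) had a sum of 59.2 CPM in 1b+/- replicate 1, against 3.34 to 18.7 CPM elsewhere. Of these genes 7 of 12 were highest in 1b+/- replicate 1, 9 had 0 counts in at least 1 library, and *Hoxa2* and *Slc6a5* were under 1 CPM throughout. The second highest *Slc12a5* library, 1b-/- replicate 2, had 4.51 CPM of this sum. With 3940859 counts in that library, 6 of the 12 genes were at 0, so its sum says little about regional content. Without 1b+/- replicate 1, left out after the values had been seen, the r of *Slc12a5* with immature neuron markers was -0.890 (n = 7). The part of regional makeup in the level of *Slc12a5* was not tested.

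The remaining marker sums moved in other orders. Choroid plexus markers, from an epithelium that expresses NKCC1, were lowest in 1b+/- replicate 2 (33.5 CPM) and highest in WT replicate 2 (1040 CPM), where *Slc12a2* measured 117.1 and 107.0 CPM. The part of choroid plexus in the level of *Slc12a2* was not tested. Astrocyte markers ran from 886.2 to 1208 CPM. Thalamus markers were highest in 1b+/- replicate 1 (501.1 CPM), next highest in WT replicate 1 (491.0 CPM) and lowest in 1b+/- replicate 4 (217.7 CPM), and striatum markers ran from 135.5 to 247.2 CPM. Hippocampus markers ran from 87.6 to 154.6 CPM, among them *Zbtb20* from 46.5 to 89.5 CPM and *Prox1* from 11.6 to 30.8 CPM. The CA1 marker *Spink8* was under 1 CPM in every library and *Lct* at 0 in 1, and the rest of the list was detected in every library. All 7 neocortex markers were also detected in every library. Which name of the tissue holds was not tested. Of the genes tested in the 11 marker lists, 0 passed the adjusted threshold in any comparison.

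The genes whose log2 CPM most resembled each cotransporter over the 8 libraries were sought among 9586 genes with a mean of at least 10 CPM, as a description with no test. For *Slc12a5* they were *Zer1* (r = 0.992), *Gprasp2* (0.989), *Zwint* (0.979), *Chid1* (0.977) and *Rgs10* (0.974). *Zer1*, like *Slc12a5*, was highest in 1b+/- replicate 1 (36.9 CPM, 19.6 to 31.8 elsewhere), and without that library its r with *Slc12a5* was 0.985. For *Slc12a2* they were *Bmpr1b* (0.987), *Nfatc3* (0.980), *Vps4b* (0.973), *Vps29* (0.972) and *Msl3* (0.963). For *Slc12a7* they were *Hist1h2ai* (0.960), *Kcna2* (0.947), *Apopt1* (0.907), *Arhgef10* (0.901) and *Ttll4* (0.901), of which *Hist1h2ai* has near-identical copies and an uncertain count. These values of r were ranked over 9586 genes on only 8 points, which share depth and scaling.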

How the data were processed

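The authors prepared stranded mRNA libraries, sequenced single 50-base reads, aligned them to mm9 with STAR 2.7.2 and counted reads per gene with featureCounts, per the labels and the study's methods. The deposited values are raw counts, given for each gene symbol and animal without normalization. The annotation, the use of strand and the treatment of reads with several matches are not given in the sources used here. Of 24015 entries, 1572 had no count and 27 symbols had turned into dates, and these were not named. The 3 cotransporters were unaffected.

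Groups, sex and age came from the sample labels. The labels number no replicates, so numbers follow the order of deposition. That samples came from separate animals is as the study states, and p-values measure only the spread between these 8 libraries. The 15588 genes that reached 1 CPM in 1 or more libraries were tested. Differences came from edgeR 4.0.16 (quasi-likelihood test, R 4.3.3), with TMM scaling, genotype as the only factor, all 8 libraries in 1 fit and Benjamini-Hochberg adjustment over all genes. A log2 fold change has a standard error (SE) from the fit and a 95% interval. The ratio of *Slc12a5* to *Slc12a2* counts was compared on the log2 scale by two-sided exact permutation. Exon lengths and positions came from a GENCODE annotation of mm9. The genes, the marker and pathway lists and the rule for naming genes (the 3 cotransporters, *Scn1a*, genes of the lists, and 5 most similar genes each) were chosen with earlier results of these data known. Alternatives were other filters and scalings, a likelihood ratio test, DESeq2 1.42.0, sex as a covariate, single-sex or two-genotype fits and omission of each library. The tests were tested on simulated data.

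Correlations with marker sums used Python 3.11.15, log2 values and exact permutation over libraries. Genes of the lists that are not reported here were left out of the list counts and sums.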

Additional observations from a re-analysis of the deposited data

Results flagged for a closer look

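Among 40 measures in the 4 1b+/- libraries (the ratio and the CPM of the genes of the 5 chloride lists), 1 had a library far from the rest by Dixon's criterion. *Stk39*, the SPAK kinase gene, reached 84.88 CPM in 1b+/- replicate 1, against 73.78 to 75.14 CPM in its 3 group mates, a gap of 0.877 of the group's range against a critical value of 0.829. Chance gives about 2.0 such cases among 40 measures, so 1 is no excess. The same library held the most *Slc12a5*, although *Slc12a5* itself did not meet the criterion.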

How the results depend on the processing

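No setting brought *Slc12a2*, *Slc12a5* or *Slc12a7* past the threshold, and the lowest adjusted p was 0.5757 (*Slc12a5*, females against males of 1b+/- without 1b+/- replicate 1). Of their fold changes under these settings 211 kept their sign and 23 turned, and of the ratio differences 19 kept it and 5 turned. No paired analysis was possible because the replicate numbers follow deposition and pair no animals. A lone animal left in a group by an omission was assumed to vary like the other groups.

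For *Slc12a2* the log2 fold change in 1b+/- against WT became 0.005916 with upper quartile scaling, 0.04112 with sex as a covariate and 0.04818 in males alone. Against WT in 1b-/- it became 0.04755 with sex as a covariate, in 1b-/- against 1b+/- 0.006431 with that covariate and 0.009812 in females alone, and in the additive model 0.02394 with that covariate. For *Slc12a5* in 1b-/- against 1b+/- it became 0.004546 by the likelihood ratio test, 0.007179 by DESeq2, 0.1349 with sex as a covariate and 0.1326 in females alone. For *Slc12a7* in the same comparison it became 0.001225 in females alone. In the genotype fits the sex term rested on 1b+/-, the only genotype with both sexes. Why the signs turned was not tested.

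Omission of each library in turn gave these ranges of log2 fold change, and each that crosses 0 includes a turned sign. For *Slc12a2* they were -0.07214 to 0.02995 in 1b+/- against WT, -0.2568 to 0.04782 in 1b-/- against WT, -0.2307 to 0.07347 in 1b-/- against 1b+/-, -0.1051 to 0.01416 in the additive model and -0.2674 to -0.03433 in females against males. For *Slc12a5* they were -0.1374 to 0.4348, -0.252 to 0.5829, -0.4768 to 0.3584, -0.04592 to 0.2776 and -0.8503 to 0.7305 in the same order. The lower end in 1b+/- against WT and the upper end in females against males came without 1b+/- replicate 1, and the lower ends in 1b-/- against WT and the additive model came without 1b-/- replicate 2. The sign of *Slc12a5* in 1b-/- against 1b+/- turned without 1b+/- replicate 1 (0.3461) and without 1b-/- replicate 1 (0.3584). *Slc12a2* turned without WT replicate 1 (0.02225) or 1b+/- replicate 4 (0.02995) in 1b+/- against WT, and without 1b-/- replicate 2 elsewhere. For *Slc12a7* no omission turned a sign (0.2411 to 0.416, 0.06282 to 0.3062, -0.2517 to -0.007968, 0.03115 to 0.1922 and -0.3985 to -0.03855). The difference in log2 ratio ranged from -0.1373 to 0.4179 in 1b+/- against WT, where it turned without WT replicate 1 (-0.0449) or 1b+/- replicate 1. It ranged from -0.299 to 0.8407 in 1b-/- against WT, where it turned without 1b-/- replicate 2. It ranged from -0.4288 to 0.7109 in 1b-/- against 1b+/-, where it turned without 1b+/- replicate 2 (-0.1471) or 1b-/- replicate 2.

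Over all genes, 13 passed in 1b+/- against WT. This count was 57 with no filter, 64 by the likelihood ratio test, 24 by DESeq2, 0 with sex as a covariate and 0 in males alone, and 0 to 30 with a library left out. For 1b-/- against WT it was 1, and 33 with no filter, 23 by the likelihood ratio test, 13 by DESeq2, 15 with the 2 genotypes alone and 1 to 16 with a library left out. For 1b-/- against 1b+/- it was 1, and 0 to 1 with a library left out. In the additive model it was 6, and 24 with no filter, 3 with upper quartile scaling, 31 by the likelihood ratio test, 3 by DESeq2, 0 with sex as a covariate and 0 to 13 with a library left out. In females against males it was 5, and 85 with no filter, 20 by the likelihood ratio test and 5 to 46 with a library left out. Depth limits the smallest libraries most, where *Slc12a5* rested on 118 counts and *Slc12a7* on 75.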
